A study of Mus musculus with 6 samples.

Results

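The genes described here are 30 pluripotency genes, listed by name with earlier results of these data known. Counts of them set beside shares of all genes are therefore descriptive. Of the 30, 29 were read on the array by a probe set assigned to exactly 1 gene, out of 18193 genes in all. Tdh, a threonine dehydrogenase gene of embryonic stem (ES) cells, had no such probe set and has no value. The 29 genes were read by 48 probe sets, and each gene is given by its brightest probe set, by the mean of the 6 arrays. RNA came from Flk1-positive cells isolated from day 4 embryoid bodies, a culture counterpart of the haemangioblast, from which blood and endothelium arise. One group was grown from Ldb1+/+ (wild-type) and the other from Ldb1-/- (knockout) mouse ES cells, with 3 biological replicates each. Both were grown in suspension in serum without leukaemia inhibitory factor (LIF). The labels do not name the strain, the deleted part of Ldb1, the number of ES cell clones or what the replicate numbers stand for, so p-values measure the spread between these arrays.

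The pluripotency network keeps the early epiblast and ES cells able to form all tissues of the embryo. POU5F1 (OCT4), SOX2 and NANOG bind shared enhancers and sustain one another. A second layer, with ZFP42 (REX1), KLF2, KLF4, KLF5, ESRRB, TFCP2L1 and PRDM14, marks the naive state of the inner cell mass, and OTX2 marks the later, primed epiblast. When LIF is withdrawn and embryoid bodies form, naive genes are shut down first, while Pou5f1 and Nanog persist in the primitive streak and nascent mesoderm from which Flk1-positive cells arise.

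The values are log2 levels, so a difference of 1 is a doubling. Probe sets bind with different strength, so levels do not order genes by their amount of RNA; a mean level served only to place a gene above or below the median and to choose which genes of the other lists are named. Of the 29 genes, 21 had a mean above the median of all probe sets (5.75) and 8 below it (Sox2, Tfcp2l1, Nr0b1, Dppa3, Tcl1, Fbxo15, Eras and Lin28b), where a weak signal and none are hard to separate. In bulk RNA, fewer cells of a type and less RNA per cell cannot be told apart. Both replicate 3 arrays stood apart in control probe sets: Gapdh's 5′ control was at 12.93 on each, against 10.19 to 11.11 on the other arrays. Array medians lay between 5.71 and 5.77. All 11 measured haemangioblast and early mesoderm markers had a mean above the median of all probe sets, Kdr (Flk1) among them with means of 12.12 ± 0.33 for wild-type and 11.70 ± 0.44 for knockout arrays (SD, n = 3). Of 9 neural ectoderm markers, 8 lay below it. Ldb1 itself stood at 7.80 ± 0.50 and 7.37 ± 0.83 (limma, adjusted p = 1.00), and without a known deleted part its probe set leaves the genotype unchecked.

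The comparison asked whether pluripotency genes differed between knockout and wild-type cells. Dppa5a, an RNA-binding protein gene of ES cells, was 2.29-fold higher in knockout cells. Zfp42, L1td1 and Tfcp2l1 were also higher without overlap between the groups, by 0.78, 0.92 and 0.36 on the log2 scale, but did not pass the test. The core genes Pou5f1, Nanog and Sox2 did not pass either, and the first 2 of these stood out in 1 knockout array, replicate 3. Without a block, 0 of 29 genes passed in limma where 0.022% of all genes did; 5 had an unadjusted p under 0.05, where 3.85% of all genes had one. The replicate numbers were taken to pair the arrays (each wild-type array's deviations correlated best with those of the knockout array of its own number). Both replicate 3 arrays also shared high 5′ controls, and the part of array quality in this match was not tested. With the number as a block 1 of 29 passed, Dppa5a, where 0.341% of all genes did, or 0.11% in the higher direction.

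**Figure D1:**
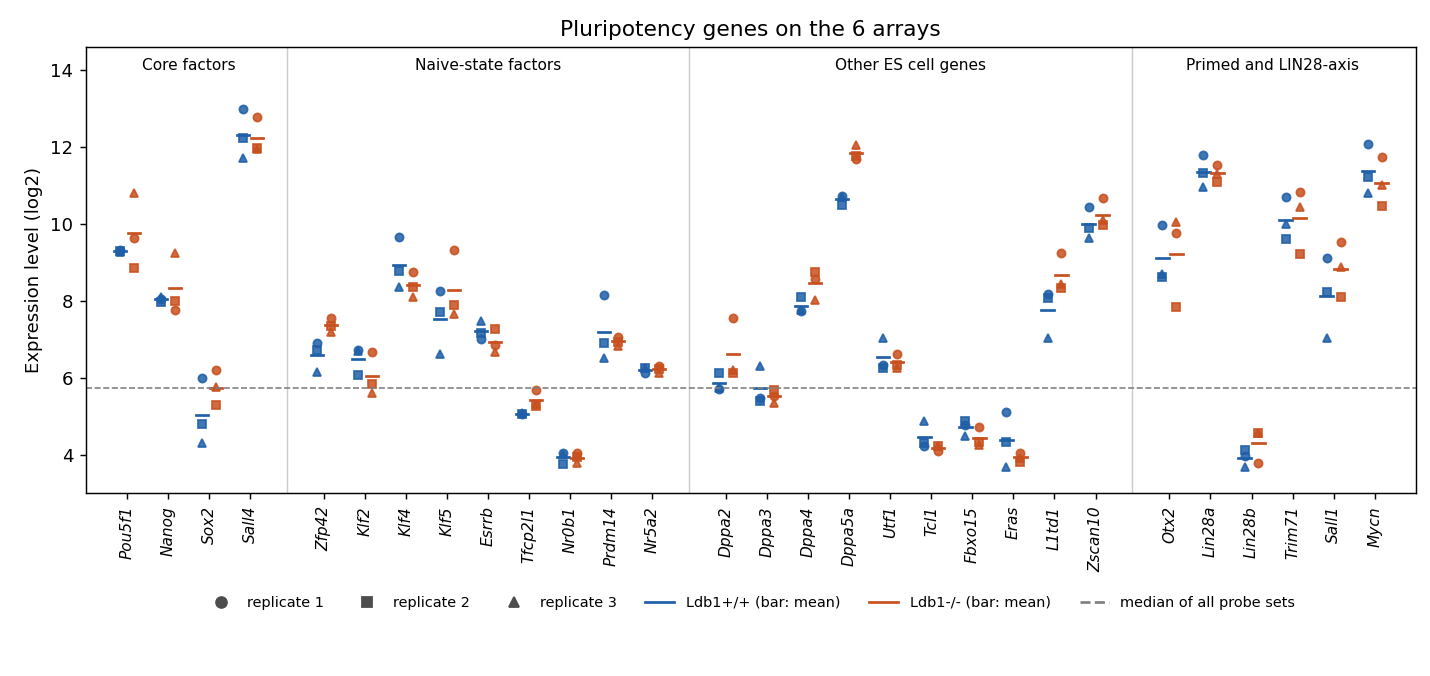
Log2 expression level (vertical axis) of 29 pluripotency genes on each of 6 arrays; symbols are replicates, bars are group means, blue is Ldb1+/+ and orange Ldb1-/-, and the dashed line is the median of all probe sets at 5.75. The 3 Dppa5a values of knockout arrays lie between 11.69 and 12.06, all above the wild-type values of 10.50 to 10.74, and for Pou5f1 and Nanog 1 knockout array stands above the other 5.

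Over the whole group the genes were spread to both sides. On average 16 of 29 were higher and 13 lower in knockout cells, with a median difference of 0.06, against −0.01 over all 18193 genes, of which 46.3% were higher. That median was −0.06 when wild-type replicate 2 was left out, −0.08 when knockout replicate 1 was and −0.04 when knockout replicate 3 was. It was 0.31 when wild-type replicate 1 was left out and 0.25 when knockout replicate 2 was. Mean differences ran from −0.52 for Klf4 to 1.20 for Dppa5a. In 4 of 29 genes every knockout array lay above every wild-type array, where 3.45% of all genes did, and in 0 the reverse, where 4.47% did. An unadjusted limma p under 0.05 with a higher level was found in 5 genes (Dppa5a, Zfp42, Dppa4, Tfcp2l1 and L1td1), where 1.61% of all genes had one, and with a lower level in 0, where 2.25% had one. With the block these counts were 7 higher (3.88% of all genes) and 1 lower, Klf4 (5.06%).

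By replicate number the picture was uneven. The median difference over the 29 genes was 0.05, 0.03 and 0.32 in numbers 1, 2 and 3, against −0.001, 0.004 and −0.02 over all genes. In these numbers 15, 15 and 20 genes were higher, where 49.7%, 50.7% and 48.0% of all genes were. Over the 21 pluripotency genes above the median of all probe sets the median difference was 0.19, −0.002 and 0.45. Over all genes of that level it was −0.05, −0.03 and 0.12, so genes of that level in general also lay higher in the knockout array of number 3. The direction was the same in all 3 numbers for 12 genes. Sox2, Zfp42, Klf5, Tfcp2l1, Dppa4, Dppa5a, L1td1 and Zscan10 were higher each time (8 of 29, where 13.5% of all genes were), and Klf2, Klf4, Tcl1 and Fbxo15 lower each time (4 of 29, where 14.9% were). Which genes passed with the block depended on the arrays. With a number left out, each genotype has 2 arrays and the blocked fit keeps 1 degree of freedom for a gene's own variance. Its calls then lean on the variance that limma pools over all genes. Without number 3, Dppa5a, Dppa4 and Zfp42 passed as higher and Klf4, Eras and Mycn as lower (6 of 29, where 4.48% of all genes passed). Without number 2, Dppa5a, Dppa2, Klf5, L1td1 and Sall1 passed as higher (5 of 29, where 1.47% did). Without number 1, Dppa5a alone passed (0.275% of all genes did), and it is the 1 gene in all 3 counts.

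**Figure D2:**
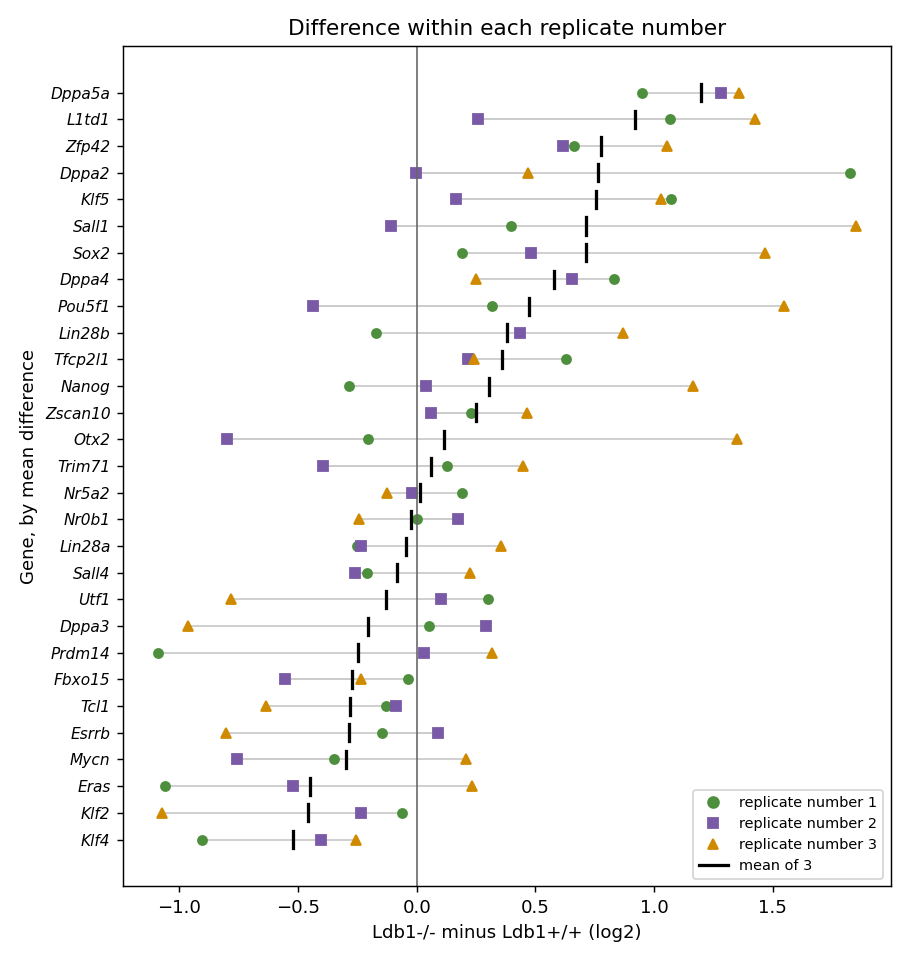
Difference between the knockout and the wild-type array of the same replicate number (horizontal axis, log2) for each of 29 genes, ordered by the mean difference; symbols mark numbers 1, 2 and 3 and the black bar is their mean. Dppa5a is to the right of 0 in all 3 numbers (0.95, 1.28 and 1.36), while Otx2 runs from −0.80 in number 2 to 1.35 in number 3.

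Among the core factors, Pou5f1, the gene of the POU factor OCT4, read 9.33, 9.29 and 9.28 in wild-type arrays 1, 2 and 3 and 9.65, 8.85 and 10.82 in knockout arrays 1, 2 and 3. The wild-type values were nearly equal, and the knockout values lay on both sides of them. The mean difference was 0.47 (95% interval −0.61 to 1.55; limma, adjusted p = 1.00). Nanog, a homeobox gene of the epiblast, read 8.07, 7.98 and 8.10 in wild-type and 7.78, 8.02 and 9.26 in knockout arrays. It too was high in knockout replicate 3 only. Its mean difference was 0.31 (95% interval −0.58 to 1.19; adjusted p = 1.00). Without knockout replicate 3 the difference was −0.05 for Pou5f1 and −0.15 for Nanog, so both turned their direction. Knockout replicate 3 was the highest of the 6 arrays for 4 of 29 genes (Pou5f1, Nanog, Dppa5a and Otx2), where it was for 12.8% of all genes.

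Nanog has 2 start sites in the RefSeq promoter table of GRCm38.p6, and the 250 bases before the second are shown because they hold a site for the POU5F1 and SOX2 pair, the factors read beside it. The motif searched, on both strands, was the SOX element ATTGT, any 1 base and the POU element ATGCAAA, and its match is in capitals.
Nanog, chr6:122707315-122707564, plus strand: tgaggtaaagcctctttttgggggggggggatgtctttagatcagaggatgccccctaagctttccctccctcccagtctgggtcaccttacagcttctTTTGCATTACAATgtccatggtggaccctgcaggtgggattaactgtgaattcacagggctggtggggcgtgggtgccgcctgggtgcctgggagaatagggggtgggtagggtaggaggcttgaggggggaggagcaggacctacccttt
The match lies 151 to 139 bases before that start, on the strand opposite to the gene's. It was found in 8 of 32851 promoters (0.0244%), the 2 overlapping Nanog entries among them, and in no other of the 21 measured pluripotency genes that the table holds. The match describes the sequence and says nothing of binding in these cells.

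Sox2, the gene of the HMG-box partner of OCT4, read 6.01, 4.81 and 4.31 in wild-type and 6.20, 5.29 and 5.77 in knockout arrays. It was higher in each replicate number, by 0.19, 0.48 and 1.47, but the groups overlapped (limma, adjusted p = 1.00, blocked 0.427). Its mean lay below the median of all probe sets. Sox2 is also a neural gene, and the 9 neural ectoderm markers had a summed log2 level of 44.02 to 46.53 in wild-type and 44.73 to 45.36 in knockout arrays, with a median difference of 0.09; their part in the Sox2 values was not tested. Sall4, a zinc-finger gene that sustains Pou5f1 expression, read 13.01, 12.23 and 11.73 in wild-type and 12.80, 11.97 and 11.95 in knockout arrays. The replicate 1 arrays were the high ones in both genotypes. The difference of −0.08 (95% interval −0.97 to 0.81) changed sign when wild-type replicate 1 (0.26) was left out, and likewise for knockout replicate 2 (0.05) and knockout replicate 3 (0.06).

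Among the naive-state transcription factors, Zfp42 and Tfcp2l1 were higher in knockout cells without overlap, and Klf2 and Klf4 were lower in each replicate number. Zfp42 encodes REX1, a zinc-finger protein used as a marker of naive ES cells. It read 6.90, 6.74 and 6.15 in wild-type and 7.56, 7.35 and 7.21 in knockout arrays. The lowest knockout value was above the highest wild-type value, and the mean difference was 0.78 (SE 0.22; limma, adjusted p = 0.879, blocked 0.122). Without both replicate 3 arrays and with the block it was 0.64 and passed (adjusted p = 0.0138).

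The 250 bases before the Zfp42 start in the same table are shown because they hold an octamer, the ATTTGCAT element that OCT4 and related POU factors bind, in capitals.
Zfp42, chr8:43307010-43307259, minus strand: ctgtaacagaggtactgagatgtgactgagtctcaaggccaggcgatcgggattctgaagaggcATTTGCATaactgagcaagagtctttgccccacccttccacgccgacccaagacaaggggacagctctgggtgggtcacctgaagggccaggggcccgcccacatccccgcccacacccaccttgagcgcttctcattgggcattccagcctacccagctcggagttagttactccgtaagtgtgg
The octamer lies 186 to 179 bases before the start. It was found on either strand in 1.60% of all 32851 promoters and in 1 of the 21 pluripotency genes held, Zfp42. The ESRRB-type site TCAAGGTCA was in 0 of the 21, where 0.387% of promoters had it. The GATA site AGATAA was in 3 (Lin28b, Nr5a2 and Otx2), where 9.99% of promoters had it. The 21 genes have 30 promoter entries, so these counts of genes and shares of promoters are in unlike units.

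Zfp42, Klf2 and Sall1 are on chromosome 8, whose 932 genes had a median difference of 0.15, with 71.0% higher in knockout cells. By replicate number the chromosome's median was 0.23, 0.06 and 0.21. Over its genes above the median of all probe sets the median difference was 0.26. Chromosome 11 lay the other way, at −0.17 with 19.6% higher, and the other autosomes and X between −0.03 and 0.001. Zfp42 and Sall1 lay above both chromosome 8 medians and Klf2 below them, at −0.46. Klf2, a Krüppel-like factor gene of the naive state, read 6.74, 6.07 and 6.69 in wild-type and 6.68, 5.84 and 5.62 in knockout arrays. The groups overlapped, and most of the difference lay in number 3 (−1.07, against −0.06 and −0.24; adjusted p = 1.00).

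Klf4, another Krüppel-like factor and 1 of the reprogramming factors, had the most negative mean difference of the group. It read 9.66, 8.77 and 8.36 in wild-type and 8.76, 8.37 and 8.11 in knockout arrays. Within each replicate number the knockout array was lower, by −0.90, −0.40 and −0.25, although the groups overlapped. The mean of −0.52 did not pass (limma, adjusted p = 1.00, blocked 0.367), was −0.16 without wild-type replicate 1, and passed with the block without the replicate 3 arrays (−0.65, adjusted p = 0.0246). Its second probe set differed by −0.53. Klf5, the third factor of this family here, went the other way. It read 8.26, 7.73 and 6.62 in wild-type and 9.33, 7.89 and 7.65 in knockout arrays, with a mean difference of 0.76 (adjusted p = 1.00, blocked 0.280). That value rested on wild-type replicate 3 and knockout replicate 1, without which it was 0.30 and 0.24. The other Klf5 probe sets differed by 0.16 and 0.17.

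Tfcp2l1, a target of LIF and STAT3 signalling, read 5.05, 5.07 and 5.10 in wild-type and 5.68, 5.29 and 5.34 in knockout arrays. The groups did not overlap, but all values lay below the median of all probe sets, and the difference of 0.36 did not pass (adjusted p = 1.00, blocked 0.513). Its other probe sets differed by −0.21 and 0.01, and the mean over probe sets by 0.05. Prdm14, which represses primed genes, read 8.16 in wild-type replicate 1 and 6.52 to 7.07 on the other 5 arrays. The difference of −0.25 was 0.23 without that array. Esrrb, an orphan nuclear receptor gene, read 7.01, 7.18 and 7.49 against 6.86, 7.27 and 6.68 (difference −0.29, or −0.16 without either replicate 3 array). Its other probe sets differed by −0.18 and −0.06. They read 5.10 to 5.77 and 4.17 to 4.61, near or below the median of all probe sets (5.75). Nr5a2 and Nr0b1, genes of 2 further nuclear receptors, differed by 0.02 and −0.02, within the spread between replicates, and both turned sign with some single arrays left out.

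**Figure D3:**
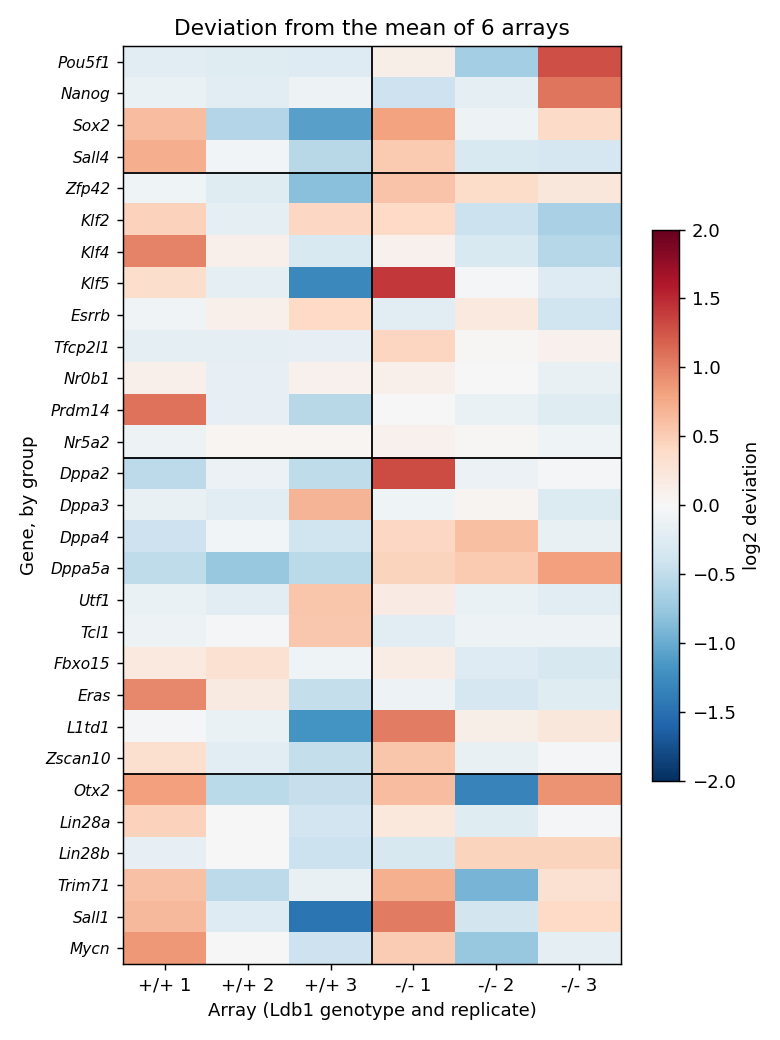
Deviation of each array from the gene's mean over 6 arrays (colour, log2) for 29 genes in rows, grouped as core, naive-state, other ES cell and primed genes, with wild-type arrays on the left and knockout arrays on the right. Dppa5a is below its mean on all 3 wild-type arrays and above it on all 3 knockout arrays; 22 genes are above their mean on knockout replicate 1, and wild-type replicate 3 is the lowest array for 11.

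Among the other genes of the ES cell and early epiblast programme, Dppa5a rose with the block, and Dppa4, Dppa2, L1td1 and Zscan10 read higher without passing. Dppa5a (also known as Esg1) read 10.74, 10.50 and 10.71 in wild-type arrays 1, 2 and 3 and 11.69, 11.78 and 12.06 in knockout arrays 1, 2 and 3. Each knockout value was above each wild-type value. The group means were 10.65 ± 0.13 and 11.84 ± 0.19 (SD, n = 3), a difference of 1.20 (SE 0.15, 95% interval 0.83 to 1.56). It passed with the replicate number as a block (limma, adjusted p = 0.0315) and not without (adjusted p = 0.148), unless the arrays were weighted (0.0116). With the block it also passed without the arrays of number 1, 2 or 3 (limma, adjusted p = 0.0375, 0.00948 and 0.000566). These fits share arrays, so they are not independent. Over all genes 50, 267 and 815 passed in them, against 62 with all arrays. Without the block the Dppa5a difference stayed between 1.09 and 1.27 with 1 array left out, with adjusted p of 0.251 to 0.695. In GRCm38.p6 Dppa5a lies on chromosome 9 next to Ooep, an oocyte and ES cell gene of the same family, which differed by 0.06.

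Dppa4 and Dppa2 are neighbouring genes on chromosome 16 whose proteins bind chromatin and activate early embryonic genes. Dppa4 read 7.75, 8.12 and 7.78 in wild-type and 8.58, 8.77 and 8.02 in knockout arrays. It was higher in each replicate number, by 0.83, 0.65 and 0.25, and wild-type replicate 2 overlapped knockout replicate 3 (limma, adjusted p = 1.00, blocked 0.280; 0.00625 with the block and without number 3). Dppa2 read 5.73, 6.14 and 5.75 in wild-type and 7.55, 6.14 and 6.21 in knockout arrays. Its difference of 0.76 was mostly that of knockout replicate 1 and was 0.30 without it. The other Dppa2 probe set differed by 0.42 without overlap, at 4.41 to 4.62 in wild-type and 4.70 to 5.14 in knockout arrays. All of those values lay below the median of all probe sets. The next gene along, Morc1, differed by −0.14. Dppa3 (Stella), which protects the maternal genome from demethylation, lies beside Nanog on chromosome 6 and differed by −0.21, or 0.08 without wild-type replicate 3.

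L1td1, an RNA-binding protein gene derived from a LINE element, read 8.19, 8.09 and 7.03 in wild-type and 9.26, 8.35 and 8.46 in knockout arrays. The groups did not overlap, the closest values being 8.19 and 8.35. The difference of 0.92 (SE 0.38) did not pass (limma, adjusted p = 1.00, blocked 0.239) and was 0.55 without wild-type replicate 3. Zscan10, which encodes a zinc-finger partner of the core factors, was higher in each number, by 0.23, 0.06 and 0.46 (adjusted p = 1.00). Utf1, a chromatin gene of undifferentiated cells, differed by −0.13, and by 0.12 without wild-type replicate 3.

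Tcl1, Fbxo15 and Eras, which serve as ES cell markers, all had means below the median of all probe sets. Tcl1 and Fbxo15 were lower in each replicate number, with mean differences of −0.28 and −0.27 (limma, adjusted p = 1.00 for both). Eras, an ES cell form of Ras on the X chromosome, read 5.12, 4.34 and 3.69 in wild-type and 4.06, 3.82 and 3.93 in knockout arrays. Its difference of −0.45 was −0.08 without wild-type replicate 1.

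Of the 6 primed epiblast and LIN28-axis genes 0 passed in limma, and 0 had an unadjusted p under 0.05 in either fit, where 3.85% of all genes had one without the block and 8.94% with it; with 6 genes, a count of 0 is near that background. LIN28A and LIN28B bind let-7 microRNA precursors and keep mature let-7 low, TRIM71 is a let-7 target that represses differentiation mRNAs, and MYCN drives growth of early progenitors. Otx2 read 9.99, 8.64 and 8.72 in wild-type and 9.78, 7.84 and 10.07 in knockout arrays. Its mean difference of 0.12 came from opposite differences of −0.20, −0.80 and 1.35 (adjusted p = 1.00), and it was −0.30 without knockout replicate 3, −0.16 when knockout replicate 1 was left out, and −0.12 or −0.08 when wild-type replicate 2 or 3 was. Trim71 read 10.72, 9.61 and 9.99 against 10.85, 9.22 and 10.44, and differed by 0.06, and turned to −0.08 or −0.28 when knockout replicate 3 or 1 was left out and to −0.19 when wild-type replicate 2 was. Mycn read 12.09, 11.22 and 10.82 against 11.75, 10.47 and 11.03. Its difference of −0.30 was 0.06 without wild-type replicate 1, and 0.01 when knockout replicate 2 was dropped instead. Sall1, a kidney and limb regulator that ES cells also express, read 9.13, 8.23 and 7.03 against 9.53, 8.12 and 8.88. Its difference of 0.71 was 0.16 without wild-type replicate 3. Lin28b stood below the median of all probe sets on every array, at 3.70 to 4.57.

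The arrays differed across the group. An array of number 1 was the highest of the 6 for 18 of 29 genes, where it was for 37.3% of all genes. In 8 it was the wild-type array (18.8% of all genes) and in 10 the knockout array (18.5%). Wild-type replicate 3 was the lowest array for 11 of 29, where it was for 26.2% of all genes. The median SD between replicates was 0.41 in wild-type and 0.37 in knockout arrays, against 0.22 and 0.19 over all genes; over genes above the median of all probe sets it was 0.27 and 0.26, and 0.42 and 0.48 for the 21 pluripotency genes of that level.

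A probe set of Lin28a moved with the array quality values. Its used probe set read 11.80, 11.33 and 10.96 in wild-type and 11.55, 11.09 and 11.32 in knockout arrays. Its other probe set read 8.06, 7.27 and 10.16 against 7.89, 6.93 and 10.40. The latter was high on both replicate 3 arrays, as were the 5′ controls of Gapdh and of Actb (12.97 and 13.22 on the replicate 3 arrays, against 11.19 to 11.49 elsewhere). Between genotypes the 2 Lin28a probe sets differed by −0.04 and −0.09, although the sign of the first turned without wild-type replicate 1 (0.17) or knockout replicate 2 (0.07). For Sall4 they differed by −0.08 and −0.09. The part of array quality in the high knockout replicate 3 values of Pou5f1, Nanog and Otx2 was not tested. Wild-type replicate 3 read 9.28, 8.10 and 8.72 for these genes. Its 5′ controls of Actb and 18S rRNA were lower than those of knockout replicate 3 (12.97 against 13.22, and 11.30 against 12.10). Gapdh's 5′ control was at 12.93 on both arrays. Of the 12 genes with several probe sets, 4 (Mycn, Nr5a2, Tfcp2l1 and Utf1) had probe sets of opposite sign.

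**Figure D4:**
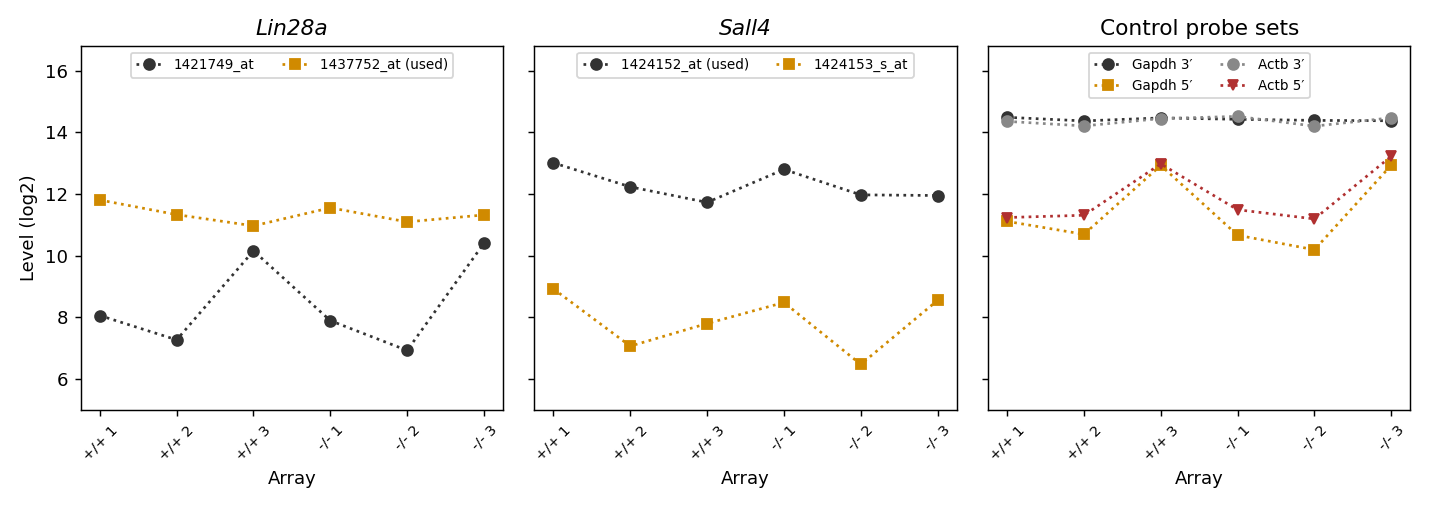
Log2 level on the 6 arrays (horizontal axis) of both probe sets of Lin28a (left) and Sall4 (middle) and of the 3′ and 5′ control probe sets of Gapdh and Actb (right). On the replicate 3 arrays the Lin28a probe set that was not used reads 10.16 and 10.40, and the 5′ controls read 12.93 to 13.22, above the other 4 arrays, while the 3′ controls stay between 14.20 and 14.51 throughout.

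Related gene lists held 0 genes that passed in either fit, where 0.022% of all genes passed without the block and 0.341% with it. The counts of unadjusted p under 0.05 that follow stand beside 3.85% of all genes without the block and 8.94% with it. The 14 LIF and STAT3 pathway genes had a median difference of 0.01 and 1 unadjusted limma p under 0.05, or 3 with the block; Ptpn11, the gene of the phosphatase SHP2, and the LIF receptor gene Lifr differed by −0.02 and 0.20. Il6st, the gene of the shared receptor subunit gp130, was named after its values were seen: it read 9.74 ± 0.30 in wild-type against 10.36 ± 0.27 in knockout arrays (SD, n = 3), without overlap, and did not pass (adjusted p = 1.00, blocked 0.163). Over 17 formative and primed epiblast genes the median was 0.03, with 1 unadjusted p under 0.05, or 4 with the block. Tdgf1, the NODAL co-receptor gene, and Dnmt3b, a DNA methyltransferase gene, differed by −0.14 and −0.10. Nodal, the gene of the NODAL ligand itself, is the gene with the unadjusted p under 0.05 in both fits and was named after its values were seen. It was higher in all 3 numbers, with a mean difference of 1.17, and did not pass (adjusted p = 1.00, blocked 0.0981). Over 22 further ES cell genes the median was 0.04, with 2 unadjusted p under 0.05, or 5 with the block, Nodal being in this list too. Bex1 differed by 0.03, and the glucose transporter gene Slc2a3, which lies beside Nanog, by −0.57. The 10 germ cell genes had a median of −0.02, with 4 unadjusted p under 0.05 in each fit (3.85% and 8.94% of all genes). In that list 1 gene was higher without overlap, Ifitm3 (0.62), where 3.45% of all genes were. Lower without overlap were 4, where 4.47% of all genes were: Ifitm1 (−0.36), Sycp3 (−0.83), Dnd1 (−0.52) and Dazl (−0.31). Sycp3, Dnd1 and Dazl were named after their values were seen. Neither Ifitm gene passed (adjusted p = 1.00), nor did Sycp3 (limma, adjusted p = 0.788, blocked 0.254), Dnd1 or Dazl.

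Markers of other cells that an embryoid body can hold showed 0 genes past the threshold in limma. Of all genes, 53.7% were lower in knockout cells on average, 3.85% had an unadjusted p under 0.05 without the block and 8.94% with it. In 12 endoderm markers 10 were lower, with a median of −0.18, a summed log2 level of 78.67 to 82.57 in wild-type and 73.44 to 83.16 in knockout arrays, and 0 unadjusted p under 0.05, or 2 with the block; Gata6 and Gata4 differed by 0.08 and −0.29. In 10 trophoblast markers 7 were lower, with a median of −0.06, a summed level of 57.67 to 58.31 and 53.36 to 58.20, and 1 unadjusted p under 0.05, or 3 with the block; Plac1 differed by −1.49 and Gata3 by 0.62. In 10 fibroblast and feeder markers the median was 0.04 and the summed level 64.76 to 72.39 and 64.17 to 74.52, with 1 unadjusted p under 0.05, or 2 with the block; Fn1 and Pdgfrb differed by 0.06 and 0.21. The 11 haemangioblast and early mesoderm markers had a median of −0.01, a summed level of 117.28 to 121.86 and 116.05 to 122.59, and 0 unadjusted p under 0.05, or 5 with the block; 6 of the 11 were lower. Eomes and Mixl1 differed by 0.19 and 0.68. Hand1, Fli1, Mesp1 and Kdr differed by −1.10, −1.04, −0.55 and −0.42, with Hand1, Fli1 and Kdr lower in all 3 numbers. Lmo2 and Etv2 differed by 0.62 and 0.46, and Lmo2, like Mixl1, was higher in all 3 numbers. Hand1, Fli1, Mesp1, Lmo2 and Etv2 were named after their values were seen. The endoderm, trophoblast, fibroblast and mesoderm sums were all lowest on knockout replicate 3, the array on which Pou5f1 and Nanog were highest. Over all genes the median deviation was also lowest on that array (−0.07). Over genes above the median of all probe sets it was lowest on wild-type replicate 3 (−0.14, against −0.05). Wild-type replicate 3 was close in the fibroblast (64.76 against 64.17) and mesoderm sums (117.28 against 116.05). In the trophoblast list, Plac1 read 7.79 on knockout replicate 3 and 8.37 to 10.41 on the other arrays. In the endoderm list, Sox7 read 6.64 on knockout replicate 3 and 8.13 to 9.78 on the other arrays. Sox17 read 5.86 there and 7.43 to 8.45 on the others. Gata4 and Gata6 read 9.14 and 10.62 there, against 9.02 and 10.73 on knockout replicate 2. Sox7 and Sox17 were likewise named after their values were seen. In the neural list Nes and Pax6 differed by 0.16 and −0.20, with 0 unadjusted p under 0.05 in either fit. The part of these cells in the values of the pluripotency genes was not tested.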

How the data were processed

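Gene expression was measured on 6 Affymetrix Mouse Genome 430 2.0 arrays, 3 for each genotype. The deposited values were log2 levels of 45101 probe sets, made by the authors with RMA and the affy package per the submitters' processing notes, without versions; RMA parameters are not given in the sources used here. After 64 control probe sets were left out, 34945 probe sets had exactly 1 gene in the platform annotation and read 18193 genes; 932 had several and 9160 had none here. Each gene was given by its brightest probe set (mean of the 6 arrays). Genotypes were compared with limma 3.58.1 (lmFit, eBayes) in R 4.3.3, with Benjamini-Hochberg adjustment over all genes and a threshold of 0.05, and again with a replicate block. Deviations of arrays of the same number correlated at 0.699, 0.354 and 0.448 over all probe sets, each above the limit of 0.1, so the numbers were taken to pair the arrays. The fit was tested on simulated data. Genes changed by 1 on the log2 scale passed in 20% of cases without the block and 30% with it. For a change of 2 the shares were 79% and 72%. A gene that did not pass is therefore not shown to be unchanged. Motifs were searched in 250 bases before each start of the RefSeq table (GRCm38.p6). Figures used matplotlib 3.10.9. Precision is limited by the number of arrays.

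The members and gene lists were chosen with earlier results of these data known. Named were all 30 members, Ldb1 and Kdr. From each of 9 other lists (115 of 122 listed genes measured) the genes named were up to 4 past the threshold or else the 2 with the highest mean. Il6st, Nodal, Sycp3, Dnd1, Dazl, Hand1, Fli1, Mesp1, Lmo2, Etv2, Sox7, Sox17, Morc1 and Ooep were named after their values were seen. Alternatives were the block, arrays left out, a filter on dim genes, other normalization, variance models, array weights and choices of probe set.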

Additional observations from a re-analysis of the deposited data

How the results depend on the processing

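The count of genes past the threshold was 4 without the block and 62 with it. It was 48 with the block and a gene's probe sets averaged, 50 with the block and without probe sets named for several transcripts (_s_, _x_, _a_), and 68 with array weights. With 1 array left out it was 1 to 6, and with the block and both arrays of number 1, 2 or 3 left out it was 50, 267 and 815. Of the 29 pluripotency genes 0 passed without the block when the arrays were weighted equally, also with any 1 array left out. Without the block but with array weights 1 passed, Dppa5a (limma, adjusted p = 0.0116). With the block, or with either other choice of probe set under it, 1 passed, and with the block and without number 1, 2 or 3 there were 1, 5 and 6. The median difference of 0.06 ran from −0.081 to 0.31 with 1 array left out and was 0.29 with the block and without number 2. Dppa5a passed in 7 of 19 alternatives and kept its direction in all 19, and 17 of the 29 genes kept theirs in every alternative run. The block changed the call of Dppa5a and of no other pluripotency gene.

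The other 12 genes turned. With 1 array left out, Pou5f1 ran from −0.050 to 0.94, Nanog from −0.15 to 0.59, Sall4 from −0.38 to 0.26, Nr0b1 from −0.11 to 0.047, Prdm14 from −0.59 to 0.23, Nr5a2 from −0.029 to 0.064, Dppa3 from −0.37 to 0.083, Utf1 from −0.27 to 0.12, Otx2 from −0.30 to 0.81, Lin28a from −0.24 to 0.17, Trim71 from −0.28 to 0.54 and Mycn from −0.63 to 0.058. With the block and without number 1, Lin28a, Prdm14 and Nr5a2 turned to 0.060, 0.17 and −0.071, and without number 2, Lin28a and Sall4 to 0.051 and 0.0062. Without number 3, Pou5f1, Nanog, Otx2 and Trim71 turned to −0.062, −0.12, −0.50 and −0.13, and Dppa3, Nr0b1 and Utf1 to 0.17, 0.087 and 0.20. With array weights Dppa3, Nr0b1, Nr5a2, Otx2 and Utf1 turned to 0.14, 0.11, −0.012, −0.14 and 0.088. Nr5a2 also turned to −0.0029 with quantile normalization repeated, −0.031 with probe sets averaged and −0.019 without _s_, _x_ and _a_ probe sets, in the latter cases with the replicate block and without it. None of these turned values passed in limma, and the cause was not tested. Precision is set by 3 arrays a group, and by 2 where arrays were left out.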
